A study of Homo sapiens with 9 samples.

Results

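The transforming growth factor beta (TGF-beta) core pathway was examined as 9 genes: the ligands TGFB1, TGFB2 and TGFB3, the receptors TGFBR1, TGFBR2 and TGFBR3, and the signal carriers SMAD2, SMAD3 and SMAD4. They were found by their Ensembl identifiers in the GENCODE release 29 annotation and make up 9 of the 26186 genes in the count table. All 9 passed the filter on low counts. RNA was sequenced from MCF10A, a human breast epithelial line that does not form tumours. The cells carried a lentiviral short hairpin, expressed from the pLKO.1 vector, against CHAF1B, a subunit of the histone chaperone CAF-1 that places new histone H3 and H4 on replicated DNA, or against GFP, which human cells lack. There were 3 groups of 3 libraries, named shCHAF1B-1, shCHAF1B-2 and shGFP after their hairpins. All 3 groups were infected in the same way, selected with 2 µg/mL puromycin from 24 h and collected at day 3, in medium with 5% horse serum, 20 ng/mL epidermal growth factor, insulin, cholera toxin and hydrocortisone. The labels name no added TGF-beta. Nothing in the labels says that the 3 libraries of a group came from separate infections, so the p-values measure the spread between these libraries, which may be technical.

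TGF-beta ligands are secreted in a latent form and bind a pair of kinase receptors: the type II receptor TGFBR2 binds the ligand and switches on the type I receptor TGFBR1. TGFBR1 then phosphorylates SMAD2 and SMAD3, which join SMAD4 and regulate genes in the nucleus. In breast epithelium the pathway is known for restraining growth and for driving the change to a mesenchymal form.

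The libraries held between 24339914 and 31819468 counts. CHAF1B itself had 63, 121 and 87 counts in shCHAF1B-1, 64, 99 and 73 in shCHAF1B-2, and 914, 1145 and 1050 in shGFP. The fitted level was 8.82% and 8.54% of shGFP. All 11 markers of mammary epithelium were detected in every library, with a summed level of 7818 to 8745 CPM (counts scaled to a common library size and for library composition) in the 6 knockdown libraries and 10470 to 11370 CPM in shGFP. The 11 B lymphocyte markers summed to 325 CPM in shCHAF1B-1 replicate 3 and to 1.87 to 2.495 CPM in the other 5 knockdown libraries, against 2.08 to 3.20 CPM in shGFP, so that 1 library stands apart and results that rest on it are given with and without it. Fibroblast markers summed to 12.4 to 15.4 CPM in knockdown and 7.93 to 8.31 CPM in shGFP (4 of 7 listed genes in the table, COL1A2 and COL3A1 not among them). Only 1 of these 4 passed the filter on low counts. COL1A1, which is also in the list of TGF-beta target genes below, made up most of the sum. It averaged 14.15 and 13.36 CPM under shCHAF1B-1 and shCHAF1B-2, against 7.69 CPM in shGFP. Myeloid markers summed to 41.2 to 45.6 CPM in knockdown and 29.1 to 32.9 CPM in shGFP (4 of 7 genes). Endothelial markers summed to 10.6 to 12.6 CPM in knockdown and 3.87 to 4.49 CPM in shGFP (4 of 5 genes, CDH5 not among them). T lymphocyte markers (2 of 7 genes) summed to 0.710 CPM in shCHAF1B-1 replicate 3, the library with the B lymphocyte markers. They summed to at most 0.336 CPM in every other library. The part of these marker differences in the results was not tested, and in bulk RNA a change in the share of a cell type and a change of RNA per cell cannot be told apart.

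With CHAF1B knocked down, most of the 9 genes differed from shGFP, in both directions. The main ligand TGFB1, both signalling receptors and all 3 SMADs were higher, SMAD2 and SMAD4 only slightly, with SMAD3 (2.67-fold under shCHAF1B-1 and 2.44-fold under shCHAF1B-2), TGFBR2 (1.92- and 1.91-fold) and TGFB1 (1.92- and 1.53-fold) in front. The weakly expressed ligands TGFB2 and TGFB3 were lower (TGFB3 past the threshold only under shCHAF1B-1), and TGFBR3 did not pass the test. Each gene was tested with edgeR's quasi-likelihood test across 16235 genes, and passed with a Benjamini-Hochberg adjusted p under 0.05. Under shCHAF1B-1, 8 of the 9 genes passed, 6 higher and 2 lower, where 53.2% of all tested genes passed, 27.9% higher and 25.2% lower. Under shCHAF1B-2, 7 passed, 6 higher and 1 lower, where 51.3% of all tested genes passed, 26.7% higher and 24.6% lower. For the mean of both hairpins, 8 passed, 6 higher and 2 lower, beside 56.9% of all tested genes, 29.2% higher and 27.7% lower. Under both hairpins in the same direction, 6 of the 9 passed as higher and TGFB2 as lower, beside 23.8% and 20.8% of all tested genes. The median log2 fold change of the 9 genes was 0.14 under shCHAF1B-1 and 0.23 under shCHAF1B-2, beside -0.003 and -0.014 for all tested genes. Scaling by library totals alone, in place of library composition, gave 40.8% of passing genes as higher under each hairpin, where the main scaling gave 52.5% and 52%.

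**Figure D1:**
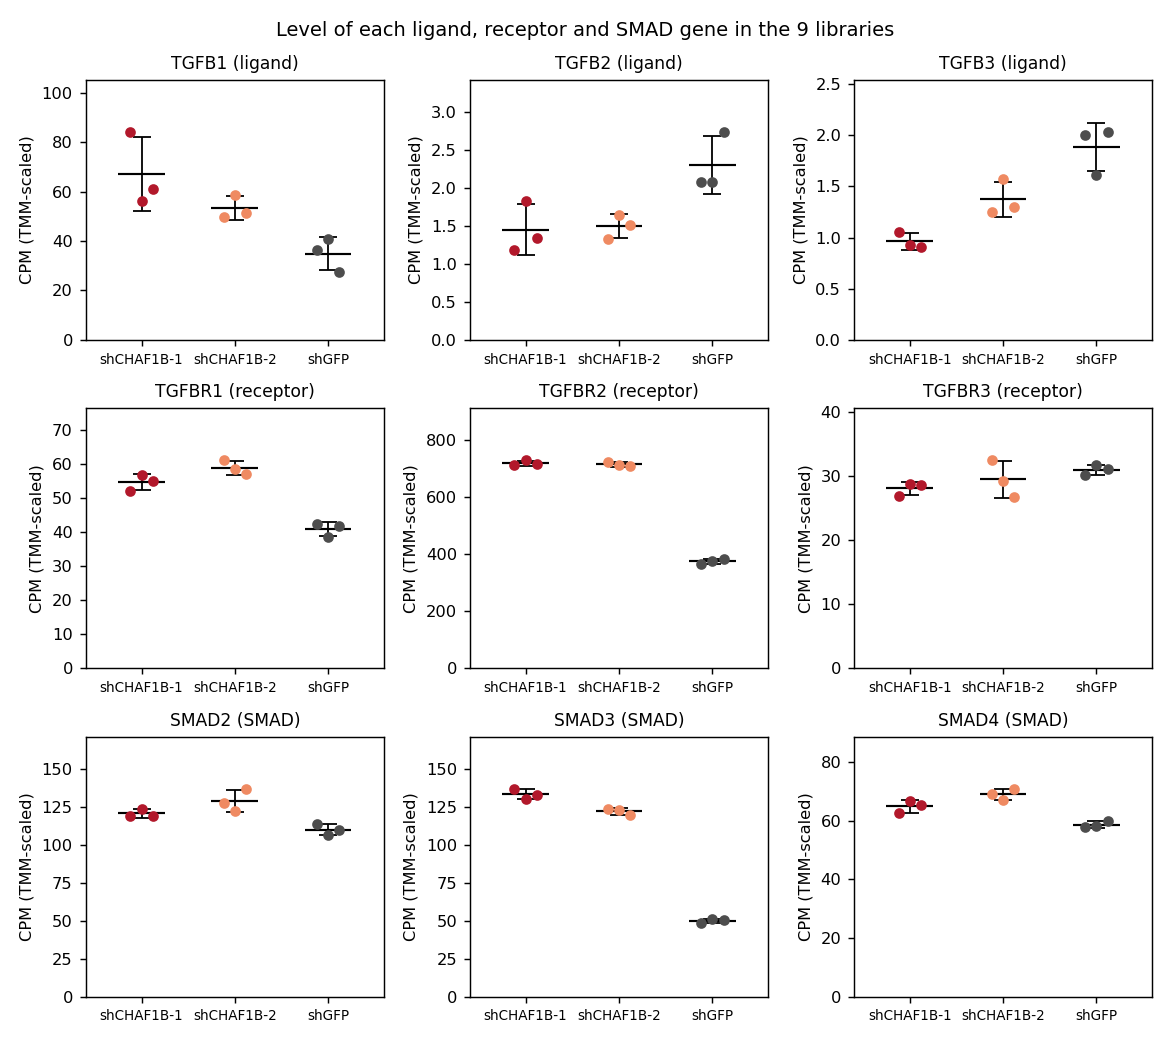
Level of each of the 9 genes in CPM (y axis, from 0) by group (x axis). Points are single libraries, the long bar is the mean and the short bars are 1 SD of 3 libraries. TGFB1, TGFBR1, TGFBR2 and the 3 SMAD genes lie higher in every knockdown library than in every shGFP library. TGFB2 and TGFB3 lie lower in every knockdown library. For TGFBR3, shCHAF1B-2 overlaps shGFP and shCHAF1B-1 lies below it.

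**Figure D2:**
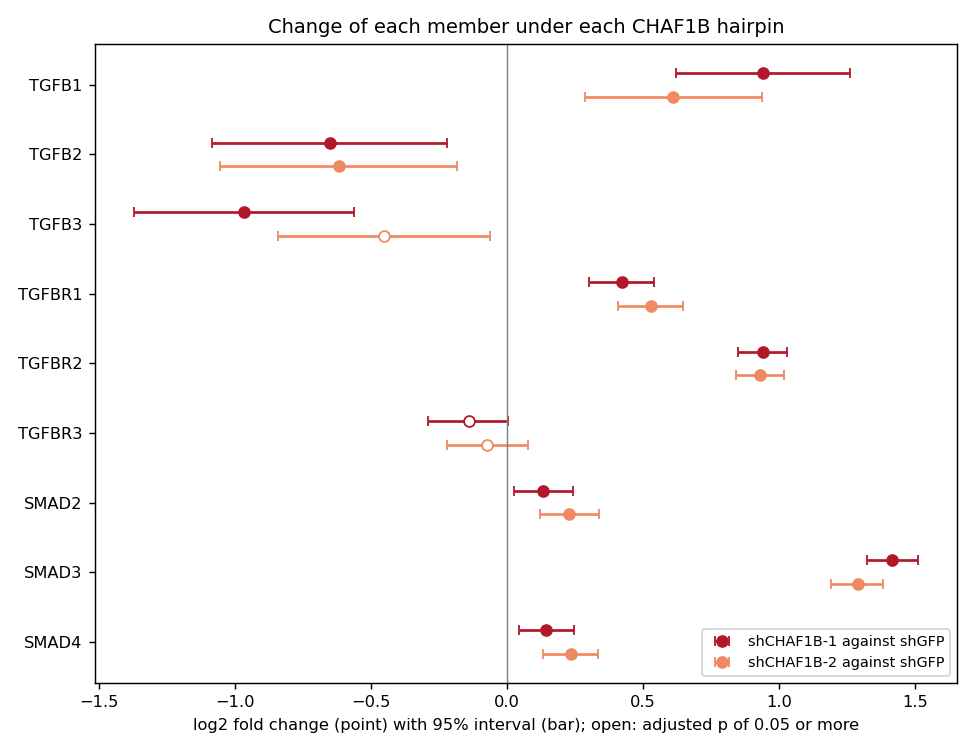
Log2 fold change of each gene (x axis) under shCHAF1B-1 and shCHAF1B-2 against shGFP. Bars are 95% intervals from edgeR's fit, and open circles mark genes with an adjusted p of 0.05 or more: TGFBR3 under both hairpins and TGFB3 under shCHAF1B-2.

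Among the ligands, TGFB1 rose while TGFB2 and TGFB3 were lower. TGFB1 (ENSG00000105329, GRCh38 chr19:41301587-41353911, minus strand) encodes the founding ligand of the family. It had 84.2, 56.2 and 61.1 CPM in shCHAF1B-1, 49.9, 58.75 and 51.4 CPM in shCHAF1B-2, and 36.3, 40.85 and 27.65 CPM in shGFP. The lowest knockdown library lay above the highest shGFP library, and shCHAF1B-1 replicate 1 was the highest of all, while replicate 3 with its B lymphocyte markers lay within its group. TGFB1 rose by 0.94 on the log2 scale under shCHAF1B-1 (SE 0.148, edgeR adjusted p = 0.000119) and by 0.61 under shCHAF1B-2 (SE 0.150, adjusted p = 0.00374). TGFB1 was among the most variable of the 9 genes between replicates, with a coefficient of variation of 17.75% pooled over the groups, against 1.66% for TGFBR2. HNRNPUL1 on the opposite strand shares 215 exon bases with TGFB1 in the annotation, and the library kit does not keep strand, so reads there cannot be assigned to either gene. Other members share exon bases too. On the same strand, TGFB2 shares 1371 with TGFB2-OT1 and SMAD4 shares 967 with AC091551.1. On the opposite strand, SMAD3 shares 182 with AC087482.1 and TGFB3 shares 163 with TGFB3-AS1. The effect of these overlaps on the counts was not tested.

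TGFB2 (ENSG00000092969, chr1:218346235-218444619, plus strand), a ligand that needs the co-receptor TGFBR3 for strong binding to TGFBR2, was near the floor of detection. It had 29, 57 and 34 counts in shCHAF1B-1, 32, 42 and 36 in shCHAF1B-2, and 54, 58 and 78 in shGFP. Scaled for depth it had 1.179, 1.83 and 1.34 CPM in shCHAF1B-1, 1.33, 1.65 and 1.51 CPM in shCHAF1B-2, and 2.08, 2.08 and 2.74 CPM in shGFP. Every knockdown library was lower than every shGFP library. TGFB2 fell by 0.65 on the log2 scale under shCHAF1B-1 (SE 0.200, edgeR adjusted p = 0.014) and by 0.62 under shCHAF1B-2 (SE 0.202, adjusted p = 0.0206). These calls rest on few libraries: without shGFP replicate 3 the adjusted p was 0.0708 and 0.0954 under the 2 hairpins, without shCHAF1B-1 replicate 1 it was 0.0556, and without shCHAF1B-2 replicate 1 it was 0.0721 in edgeR's fit for that hairpin.

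TGFB3 (ENSG00000119699, chr14:75958099-75982991, minus strand), the remaining ligand, was also near the floor of detection. It had 26, 29 and 23 counts in shCHAF1B-1, 30, 40 and 31 in shCHAF1B-2, and 52, 45 and 58 in shGFP. Scaled for depth, TGFB3 had 1.06, 0.930 and 0.907 CPM in shCHAF1B-1, 1.25, 1.57 and 1.30 CPM in shCHAF1B-2, and 2.00, 1.61 and 2.04 CPM in shGFP. All 6 knockdown libraries were lower than the 3 shGFP libraries, with shCHAF1B-2 between the other groups. TGFB3 fell by 0.96 on the log2 scale under shCHAF1B-1 (SE 0.187, edgeR adjusted p = 0.000663), while under shCHAF1B-2 its log2 fold change was -0.45 (SE 0.181, adjusted p = 0.0512), just outside the threshold. It passed under shCHAF1B-2 without shCHAF1B-2 replicate 2 (adjusted p = 0.0409) or without shGFP replicate 2 (adjusted p = 0.0349).

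The receptors differed in size of response. TGFBR2 (ENSG00000163513, chr3:30606502-30694142, plus strand), the ligand-binding type II kinase, was the most abundant of the 9 genes. It had 711, 728 and 713.5 CPM in shCHAF1B-1, 722, 710 and 709 CPM in shCHAF1B-2, and 365, 375 and 383 CPM in shGFP. Replicates lay within a few percent of each other, and the knockdown libraries were far from the shGFP libraries. TGFBR2 rose by 0.94 on the log2 scale under shCHAF1B-1 (SE 0.0413, edgeR adjusted p = 5.97e-10) and by 0.93 under shCHAF1B-2 (SE 0.0413, adjusted p = 7.18e-10).

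TGFBR1 (ENSG00000106799, chr9:99104038-99154192, plus strand), the type I kinase that phosphorylates the SMADs, had 52.2, 56.9 and 55.2 CPM in shCHAF1B-1, 61.1, 58.7 and 57.0 CPM in shCHAF1B-2, and 42.4, 38.5 and 41.8 CPM in shGFP. The groups did not overlap between knockdown and shGFP. TGFBR1 rose by 0.42 on the log2 scale under shCHAF1B-1 (SE 0.0556, edgeR adjusted p = 2.43e-05) and by 0.53 under shCHAF1B-2 (SE 0.0557, adjusted p = 3.36e-06). Counts for TGFBR2 were 11.8 to 13.6 times those for TGFBR1 in the 6 knockdown libraries and 8.61 to 9.73 times in shGFP.

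TGFBR3 (ENSG00000069702, chr1:91680343-91906335, minus strand), or betaglycan, presents ligand to TGFBR2 without being a kinase itself. It had 26.95, 28.8 and 28.6 CPM in shCHAF1B-1, 32.5, 29.3 and 26.7 CPM in shCHAF1B-2, and 30.25, 31.75 and 31.1 CPM in shGFP. The shCHAF1B-2 libraries spanned the shGFP libraries, and the shCHAF1B-1 libraries lay below them. The log2 fold change was -0.14 under shCHAF1B-1 (95% interval -0.289 to 0.006, edgeR adjusted p = 0.0995) and -0.07 under shCHAF1B-2 (interval -0.220 to 0.076, adjusted p = 0.407). For the mean of both hairpins the adjusted p was 0.141, and 0.0316 without shCHAF1B-2 replicate 1.

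The SMAD genes were all higher, by unequal amounts. SMAD3 (ENSG00000166949, chr15:67063763-67195195, plus strand), a receptor-regulated SMAD that binds DNA directly, had 137, 130.5 and 133 CPM in shCHAF1B-1, 124, 123 and 119.6 CPM in shCHAF1B-2, and 48.7, 50.95 and 50.4 CPM in shGFP. Every knockdown library lay far above every shGFP library. SMAD3 rose by 1.42 on the log2 scale under shCHAF1B-1 (SE 0.0441, edgeR adjusted p = 2.02e-11) and by 1.29 under shCHAF1B-2 (SE 0.0442, adjusted p = 5.52e-11), the largest change of the 9 genes under each hairpin.

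SMAD2 (ENSG00000175387, chr18:47808957-47931146, minus strand), the other receptor-regulated SMAD of the pathway, had 119.5, 124 and 119 CPM in shCHAF1B-1, 128, 123 and 137 CPM in shCHAF1B-2, and 114, 107 and 110.3 CPM in shGFP. The knockdown libraries did not overlap the shGFP libraries, but the gap was small. SMAD2 rose by 0.13 on the log2 scale under shCHAF1B-1 (SE 0.0499, edgeR adjusted p = 0.0362) and by 0.23 under shCHAF1B-2 (SE 0.0499, adjusted p = 0.00165). Of the other settings, upper-quartile scaling (adjusted p = 0.089), library totals alone (0.451) and no filter (0.0714) ended the call under shCHAF1B-1. That call was also lost without shCHAF1B-1 replicate 1, 2 or 3 (adjusted p = 0.0525, 0.126 and 0.0501), without shCHAF1B-2 replicate 1 (0.0662) and without shGFP replicate 2 or 3 (adjusted p = 0.123 and 0.0753).

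SMAD4 (ENSG00000141646, chr18:51028394-51085045, plus strand), the common partner that carries the receptor-regulated SMADs to DNA, had 62.5, 66.5 and 65.4 CPM in shCHAF1B-1, 69.0, 66.9 and 70.8 CPM in shCHAF1B-2, and 57.8, 58.2 and 59.8 CPM in shGFP. Here too the knockdown libraries did not overlap the shGFP libraries. SMAD4 rose by 0.15 on the log2 scale under shCHAF1B-1 (SE 0.0466, edgeR adjusted p = 0.0178) and by 0.23 under shCHAF1B-2 (SE 0.0467, adjusted p = 0.000871). Under shCHAF1B-1 it was not past the threshold with upper-quartile scaling (adjusted p = 0.0509) or library totals alone (0.313), nor without shCHAF1B-1 replicate 2 or 3 (adjusted p = 0.0784 and 0.0524) or without shGFP replicate 1 (adjusted p = 0.0673). Counts of SMAD3 were 0.871 to 1.15 times those of SMAD2 in the 6 knockdown libraries and 0.4285 to 0.477 times in shGFP, and 1.69 to 2.19 times those of SMAD4 in knockdown against 0.843 to 0.875 times in shGFP. In the 6 knockdown libraries these ratios did not overlap the shGFP libraries.

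Across the 9 genes, the 6 knockdown libraries did not overlap the 3 shGFP libraries for 8 genes, 6 of them higher and 2 lower. Of all tested genes, 48.6% were likewise without overlap, 25.8% higher and 22.7% lower. No gene of the 9 differed between the hairpins at an adjusted p under 0.05, where 0% of all 16235 tested genes did so in edgeR's fit, and the count was also 0 by DESeq2 and by limma voom. At an unadjusted p under 0.05, 1800 genes differed between the hairpins, where 812 would do so if none of the genes differed. The largest differences of shCHAF1B-2 minus shCHAF1B-1 were 0.51 in log2 for TGFB3 (95% interval 0.087 to 0.940, adjusted p = 0.429) and -0.33 for TGFB1 (interval -0.641 to -0.016, adjusted p = 0.44). SMAD3 had the lowest p of the 9, with a difference of -0.13 (interval -0.219 to -0.037, edgeR adjusted p = 0.423). TGFBR2 differed by -0.01 (interval -0.097 to 0.079, adjusted p = 0.947). A missed threshold does not show that the hairpins act alike.

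Levels between genes were compared per length, as CPM per kilobase of the exon union (RPKM). TGFBR2 had the highest level in every group, at 152.6 ± 1.91 RPKM in shCHAF1B-1, 151.6 ± 1.57 in shCHAF1B-2 and 79.5 ± 1.88 in shGFP (SD, n = 3 each), and 97.3% of the tested genes were below its shGFP level. TGFB1 was next by this length, at 20.7 ± 4.62 RPKM in shCHAF1B-1, 16.5 ± 1.47 in shCHAF1B-2 and 10.8 ± 2.07 in shGFP. SMAD3 came after TGFB1 in both knockdown groups, at 14.7 ± 0.362 RPKM in shCHAF1B-1 and 13.4 ± 0.247 in shCHAF1B-2, and after TGFBR1 in shGFP, at 5.49 ± 0.129 RPKM. TGFBR1 had 8.0 ± 0.353 RPKM in shCHAF1B-1, 8.61 ± 0.300 in shCHAF1B-2 and 5.975 ± 0.304 in shGFP. SMAD4 followed at 4.94 ± 0.158 RPKM in shCHAF1B-1, 5.25 ± 0.151 in shCHAF1B-2 and 4.465 ± 0.0822 in shGFP. TGFBR3 had 3.23 ± 0.117 RPKM in shCHAF1B-1, 3.39 ± 0.333 in shCHAF1B-2 and 3.56 ± 0.0862 in shGFP. SMAD2 had 3.33 ± 0.0777 RPKM in shCHAF1B-1, 3.55 ± 0.203 in shCHAF1B-2 and 3.03 ± 0.0944 in shGFP, and its libraries overlapped those of TGFBR3 in both knockdown groups and not in shGFP. TGFB2 and TGFB3 came last, at 0.281 ± 0.0655 and 0.196 ± 0.0165 RPKM in shCHAF1B-1, 0.291 ± 0.0310 and 0.2795 ± 0.0351 in shCHAF1B-2, and 0.446 ± 0.0736 and 0.383 ± 0.0479 in shGFP, with overlapping libraries in shCHAF1B-2 and shGFP. Below TGFBR2 the order depends on the length used. With the longest transcript as length, TGFB1 stood above SMAD3 in shGFP without overlap, at 12.6 RPKM against 8.01. By that length the libraries of TGFB1 and SMAD3 overlapped in shCHAF1B-1 (24.25 against 21.4 RPKM) and in shCHAF1B-2 (19.3 against 19.6 RPKM). With the median basic coding transcript in place of the exon union (1530 against 9113 bases for SMAD3, and 10445 against 36366 for SMAD2), SMAD3 stood above TGFB1 in every group without overlap, at 87.3 RPKM against 24.25 in shCHAF1B-1, 79.9 against 19.3 in shCHAF1B-2 and 32.7 against 12.6 in shGFP. With that length TGFB3 also stood above TGFB2 in every group, at 0.507 RPKM against 0.289 in shCHAF1B-1, 0.7225 against 0.299 in shCHAF1B-2 and 0.991 against 0.459 in shGFP.

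**Figure D3:**
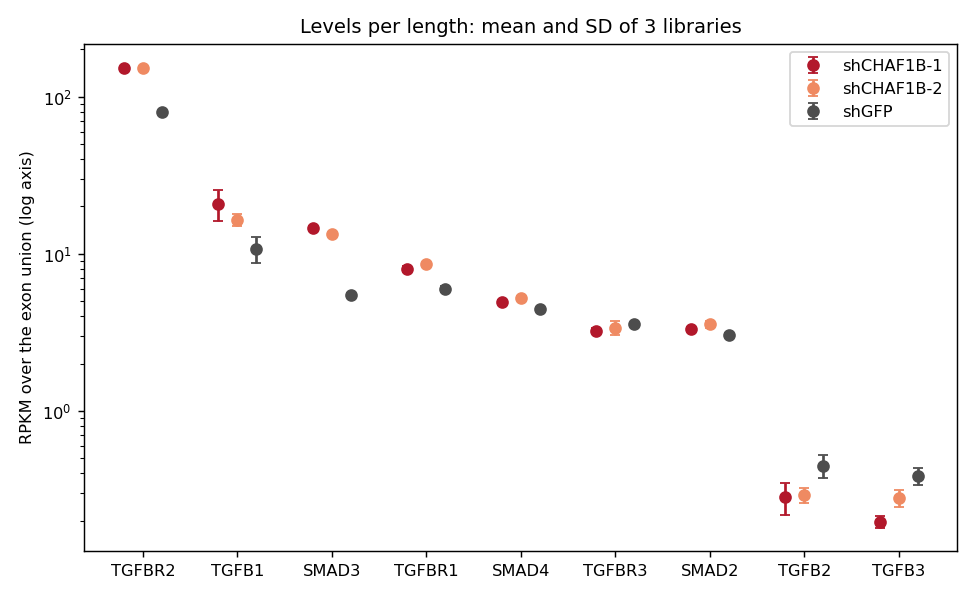
Level per length (RPKM over the exon union, log axis) of the 9 genes, ordered by their mean over the 9 libraries. Points are group means and bars 1 SD of 3 libraries, and TGFBR2 stands above the other genes in each group while TGFB2 and TGFB3 stand below 1 RPKM.

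Within each role the mixture of gene products shifted. TGFB1 made up 97.7 ± 0.682% of the summed ligand RPKM in shCHAF1B-1 and 96.7 ± 0.107% in shCHAF1B-2, against 92.6 ± 2.31% in shGFP (SD, n = 3 each). TGFBR2 made up 93.1 ± 0.206% and 92.7 ± 0.293% of receptor RPKM in knockdown, against 89.3 ± 0.336% in shGFP. Among the SMADs, SMAD3 made up 63.95 ± 1.17% in shCHAF1B-1 and 60.4 ± 1.35% in shCHAF1B-2, against 42.3 ± 0.807% in shGFP. With the median basic coding transcript as length, SMAD3 made up 81.96 ± 0.716% in shCHAF1B-1, 79.6 ± 1.02% in shCHAF1B-2 and 65.2 ± 0.904% in shGFP. The share of SMAD3 was higher than in shGFP in 6 of 6 knockdown libraries. A gene's length is the same in every library, and SMAD3 rose against both SMAD2 and SMAD4. Both lengths must therefore give the same direction, and the second is not a separate check of it.

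**Figure D4:**
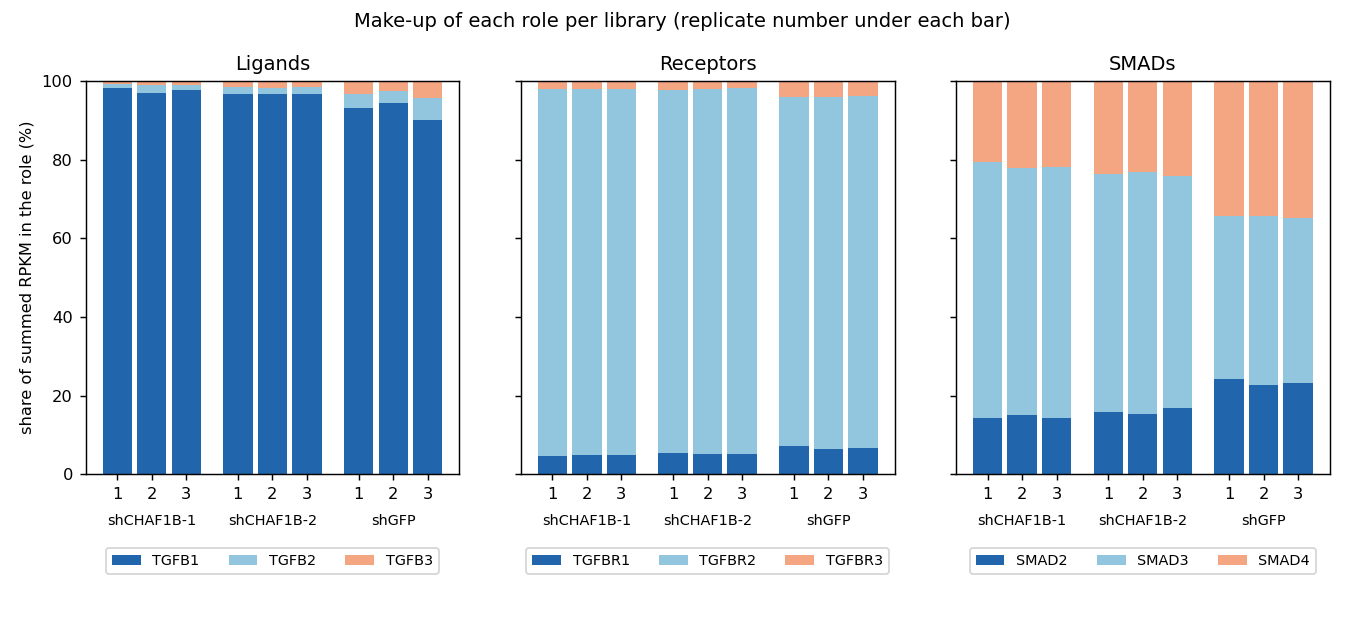
Share of each gene in the summed RPKM of its role (y axis, percent) in each library (x axis, replicate number within each group). SMAD3 takes 58.9 to 65.2% of the SMAD bars in knockdown, against 41.5 to 43.1% in shGFP, while TGFB1 and TGFBR2 fill most of their bars in every library.

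The promoters of 4 genes are shown because these genes had the largest changes for the mean of both hairpins, higher for SMAD3, TGFBR2 and TGFB1 and lower for TGFB3 (under shCHAF1B-2 alone TGFB2 fell more). Each is the 250 bases before the first listed RefSeq start on GRCh38.p14, written on the gene's own strand, at chr15:67065352-67065601 (plus) for SMAD3, chr3:30606106-30606355 (plus) for TGFBR2, chr19:41353923-41354172 (minus) for TGFB1 and chr14:75983012-75983261 (minus) for TGFB3. Capitals mark matches to the searched motifs, on either strand.
SMAD3 promoter: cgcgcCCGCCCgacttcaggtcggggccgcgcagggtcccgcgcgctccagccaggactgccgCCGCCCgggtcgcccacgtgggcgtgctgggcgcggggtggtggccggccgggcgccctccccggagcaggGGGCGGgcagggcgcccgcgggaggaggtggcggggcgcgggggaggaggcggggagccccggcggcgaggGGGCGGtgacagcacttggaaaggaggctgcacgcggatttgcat
TGFBR2 promoter: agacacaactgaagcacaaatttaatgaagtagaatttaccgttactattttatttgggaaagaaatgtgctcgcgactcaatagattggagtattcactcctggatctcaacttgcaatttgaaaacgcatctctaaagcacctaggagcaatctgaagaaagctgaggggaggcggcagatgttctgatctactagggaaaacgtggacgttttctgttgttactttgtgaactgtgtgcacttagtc
TGFB1 promoter: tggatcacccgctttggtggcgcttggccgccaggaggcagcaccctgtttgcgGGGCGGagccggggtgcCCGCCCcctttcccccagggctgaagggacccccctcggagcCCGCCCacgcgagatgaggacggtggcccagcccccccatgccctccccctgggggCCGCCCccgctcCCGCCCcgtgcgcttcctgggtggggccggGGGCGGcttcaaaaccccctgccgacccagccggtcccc
TGFB3 promoter: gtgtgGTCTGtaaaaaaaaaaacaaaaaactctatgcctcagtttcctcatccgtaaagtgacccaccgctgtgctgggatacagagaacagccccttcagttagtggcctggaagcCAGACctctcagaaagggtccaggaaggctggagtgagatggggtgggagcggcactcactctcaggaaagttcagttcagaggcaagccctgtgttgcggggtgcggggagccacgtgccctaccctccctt

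The motifs were the SMAD box (CAGAC or GTCTG), the SMAD palindrome (GTCTAGAC), the AP-1 site (TGANTCA), the GC box bound by SP1 (GGGCGG or CCGCCC) and the E-box type bound by Snail factors (CAGGTG or CACCTG). All 9 genes matched the RefSeq table of 27305 promoters. SMAD3 held 4 GC boxes and TGFB1 held 6, TGFB3 held 2 SMAD boxes, and the TGFBR2 window held none of the 5 motifs. GC boxes were in 5 of the 9 promoters, beside 42.3% of all promoters of the same length, and SMAD boxes were in 3 of the 9 (TGFB2, TGFB3 and TGFBR1), beside 37.8% of all. The SMAD palindrome, AP-1 and E-box letters were in none of the 9, beside 0.176%, 6.6% and 17.5% of all promoters. Base composition ran from 80.8% GC in SMAD3 and 76.8% in TGFB1 to 54.8% in TGFB3 and 40.8% in TGFBR2, around a median of 58.0% over all promoters. Whether base composition goes with the changes was not tested. The RefSeq start was base 67065602 for SMAD3 and 30606356 for TGFBR2, against gene starts of 67063763 and 30606502 in GENCODE. Windows before other starts were not examined. A match is only a match of letters.

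The genes around the core were counted in 6 textbook lists. For the mean of both hairpins, 29.2% of all tested genes were higher and 27.7% lower, and the median log2 fold change of all tested genes was -0.014. Of the genes listed under ligand latency and activation, 9 of 10 tested were higher for the mean of both hairpins, none was lower, and the median log2 fold change was 0.57. Under shCHAF1B-1 alone 9 were higher and under shCHAF1B-2 alone 7, beside 27.9% and 26.7% of all tested genes. ITGB6, the integrin subunit that pairs with ITGAV to release TGF-beta in epithelium, rose by 1.42 (SE 0.0442, edgeR adjusted p = 1.37e-11) and averaged 126 and 136 CPM under shCHAF1B-1 and shCHAF1B-2, against 48.85 CPM in shGFP. LTBP3, which anchors latent ligand in the matrix, rose by 1.23 and its relative LTBP2 by 1.06, while ITGAV rose by 0.74. FBN1, the fibrillin that holds LTBPs, had a log2 fold change of 0.12 that did not pass.

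Of the co-receptors and decoys, 6 of 8 tested were higher and 1 lower, beside 29.2% and 27.7% of all tested genes, with a median of 0.51. NRP1, a co-receptor that also binds VEGF and semaphorins, averaged 144 and 142 CPM under shCHAF1B-1 and shCHAF1B-2, against 19.95 CPM in shGFP, a log2 rise of 2.84 (SE 0.0538, edgeR adjusted p = 1.57e-13). PMEPA1, which keeps SMAD2 and SMAD3 from the receptor, rose by 0.75 and FKBP1A, which holds TGFBR1 inactive, by 0.50. TGFBRAP1, a receptor-associated chaperone of SMAD4, fell by 0.54, and ENG (-0.06) did not pass.

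Of the SMAD anchors, inhibitors and turnover genes, 7 of 16 were higher, 4 lower and 5 did not pass, with a median of 0.13. Beside 29.2% higher and 27.7% lower among all tested genes, the lower share was near the background. SKI and SKIL encode related SMAD co-repressors and differed in sign: SKI fell by 1.14 (SE 0.0647, edgeR adjusted p = 5.47e-09) and SKIL rose by 0.99 (SE 0.0547, adjusted p = 3.90e-09). SKI averaged 42.2 and 40.65 CPM under the 2 hairpins, against 91.1 CPM in shGFP, and SKIL 47.0 and 46.9 CPM, against 23.6 CPM. The ubiquitin ligases SMURF2 and SMURF1, which mark receptors and SMADs for breakdown, rose by 0.87 and 0.56. USP15 (0.01) and STRAP (-0.015) did not pass.

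Of the receptors and SMADs of the BMP and activin branch, 4 of 11 were higher, 3 lower and 4 did not pass, with a median of -0.04. These shares were near those of all tested genes, 29.2% higher and 27.7% lower. The type I receptor ACVR1 rose by 0.66 and the type II receptor BMPR2 by 0.46, while the activin receptor ACVR1B fell by 0.49 and the BMP-regulated SMAD1 fell by 0.46. BMPR1A (-0.04) and ACVR2A (-0.08) did not pass. Among nuclear partners of SMADs, 6 of 11 were higher and 1 lower, beside 29.2% and 27.7% of all tested genes, with a median of 0.30. RUNX2, a DNA-binding partner, rose by 2.04 (SE 0.122, edgeR adjusted p = 9.21e-09), and the AP-1 subunits FOS and JUN rose by 0.84 and 0.68, while CBFB rose by 0.37. The co-activators CREBBP (0.02) and EP300 (-0.05) did not pass.

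Of the textbook TGF-beta target genes, 25 of 35 tested were higher, 5 lower and 5 did not pass, with a median of 0.80, beside 29.2% higher, 27.7% lower and a median of -0.014 over all tested genes. HMGA2, a chromatin protein of the mesenchymal change, averaged 568 and 527 CPM under shCHAF1B-1 and shCHAF1B-2, against 104 CPM in shGFP, a rise of 2.39 (SE 0.0478, edgeR adjusted p = 1.99e-13). The metalloproteinase inhibitor TIMP1 rose by 1.88. MMP9, a metalloproteinase, averaged 12.9 and 10.55 CPM in knockdown, against 0.0484 CPM in shGFP, and its log2 fold change of 7.77 rests on 4 counts in all 3 shGFP libraries. MMP9 passed the filter on low counts only through its knockdown libraries. The 5 that fell were TAGLN (-1.60), ACTA2 (-0.89), MYC (-0.48), ID3 (-0.45) and CYR61 (-0.12), named after their values were seen. TAGLN and ACTA2 are contractile smooth muscle genes that TGF-beta raises in many cells, while MYC and the ID genes are lowered by it in many epithelial cells. ID1 (0.02) and TPM1 (-0.02) did not pass. Some genes stand in more than 1 list, such as SKIL, SMAD7, PMEPA1, LTBP2 and ITGB6.

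**Figure D5:**
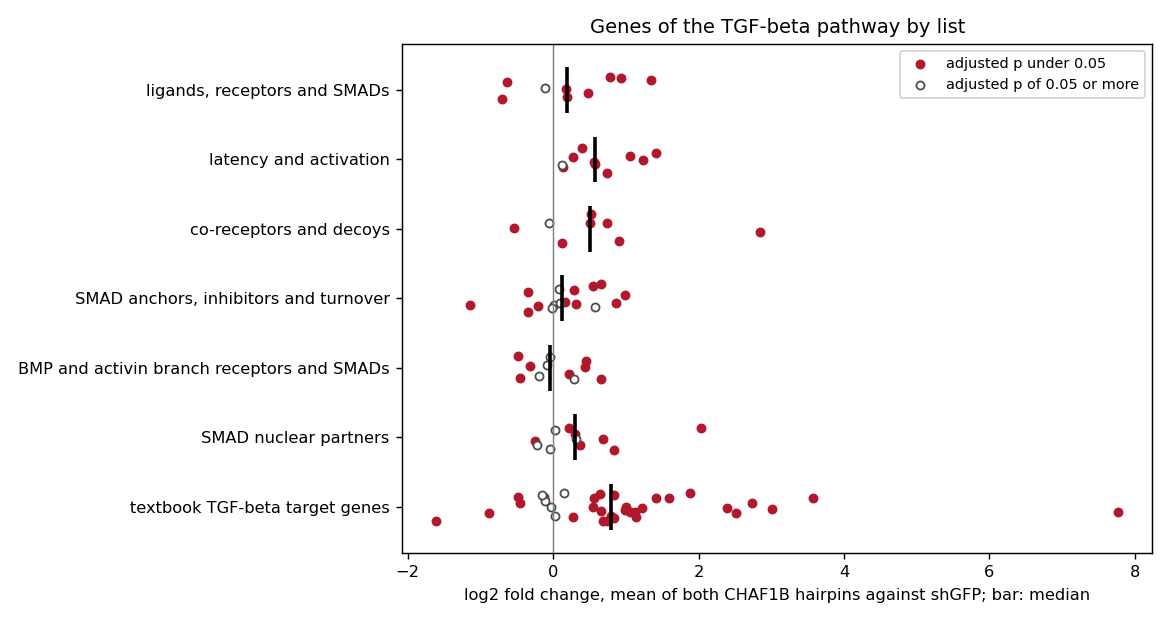
Log2 fold change (x axis, mean of both CHAF1B hairpins against shGFP) of every tested gene in the core and in the 6 lists around it (y axis). Filled points have an edgeR adjusted p under 0.05, open points do not, and bars are list medians, which run from -0.04 in the BMP and activin branch to 0.80 in the target genes.

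Among the genes whose levels followed the leading member of each role most closely over the 9 libraries were, by Pearson r of log2 CPM, JUNB (0.992) and PDLIM4 (0.988) for TGFB1, ANO6 (0.9999), NCEH1 (0.999) and CD44 (0.999) for TGFBR2, and KLF6 (0.999), KIAA0319L (0.999) and NOL4L (0.999) for SMAD3. Of 11740 genes screened, 1659 had r over 0.95 with TGFBR2 and 1589 with SMAD3, but 135 with TGFB1. The 9 points share 3 groups, so a high r is shared by many genes that differ between knockdown and shGFP.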

How the data were processed

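Per the labels, polyadenylated RNA was made into libraries with a TruSeq RNA v2 kit, which does not keep strand. The authors deposited a table of raw counts per gene for the 9 MCF10A libraries. Tools listed in the submitters' processing notes are HTSeq 0.8.0, STAR 2.5.3a and DESeq2 1.18.1, with the builds hg38 and mm10, and no role is given for any of them. Gene names came from GENCODE release 29, in which 26149 of the 26186 identifiers matched. The lowest total of a gene was 7 counts, so genes below that are not in the table. From the counts, edgeR 4.0.16 in R 4.3.3 was run with TMM scaling, group as the only term and all 9 libraries in 1 fit. The filter asked for a level equal to 10 counts at the median library size in at least 3 libraries, and 15 counts in total. Its proportion setting of 0.7 has no effect with 3 libraries a group. A gene could thus pass through 1 group alone. The fit tested each hairpin and their mean against shGFP, and the hairpins against each other. CPM and RPKM were computed from the same scaled counts. Alternatives were DESeq2 1.42.0, limma 3.58.1 voom, other scalings and filters, a replicate block, other gene lengths, an adjusted p of 0.01 and each library left out. The median basic coding length was added after the data were seen. Scripts were tested on simulated data. Replicates differed by more than sampling noise (chi-square per degree of freedom 4.085 to 14.2). The named genes were the 9 members, CHAF1B, up to 4 genes per list with the smallest adjusted p and up to 2 that did not pass with the highest CPM, and the 3 genes most like the leading member of each role. Some genes that this rule names are not reported here. The members, lists and tests were chosen with earlier results of these data known. Intervals cover the spread between libraries only.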

Additional observations from a re-analysis of the deposited data

How the results depend on the processing

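Under the alternative settings there were 504 values of the 9 genes against shGFP. Of these, 470 kept their direction and their side of the threshold, 25 lost the call, 9 gained it and none changed sign. The stricter threshold of 0.01 reused the main fit, so under it a call could be lost but no fold change could move. Between the hairpins none of 171 passed, and 5 changed sign, for TGFB2, TGFBR2 and TGFBR3. TGFB1, TGFBR1, TGFBR2 and SMAD3 kept their calls against shGFP under every alternative run. At an adjusted p under 0.01, 5 members passed under shCHAF1B-1, with 6738 of all genes. With 1 library left out at a time, 6 to 8 members passed under shCHAF1B-1, 6 to 8 under shCHAF1B-2 and 8 to 9 for the mean of both, with 7668 to 9042, 7281 to 8444 and 8255 to 9477 of all genes. Library totals alone ended the call of SMAD2 (edgeR adjusted p = 0.451) and SMAD4 (0.313) under shCHAF1B-1 and of SMAD2 for the mean (0.0674). That scaling brought in TGFBR3 for the mean (0.0153) and under shCHAF1B-1 (0.0136), and TGFB3 under shCHAF1B-2 (0.0247). TGFBR3 under shCHAF1B-1 also passed in the fit on the groups compared alone (0.0394). TGFB3 under shCHAF1B-2 also passed with upper-quartile scaling (0.0372) and with a filter of at least 1 CPM in 3 libraries (0.0353). DESeq2 left TGFB2 under shCHAF1B-2 at an adjusted p of 0.0506. The cause was not tested. Replicates with the same number showed no clear shared deviation (r from -0.138 to 0.100 over 9 pairs). Pairs with different numbers had r from -0.217 to 0.22. With 3 libraries a group, these values cannot decide whether the numbers pair the libraries. The fit with a replicate block passed 7, 7 and 8 members for shCHAF1B-1, shCHAF1B-2 and the mean, and 8305, 7981 and 8913 of all genes. With the block SMAD2 under shCHAF1B-1 had an adjusted p of 0.0547. The fit on the groups compared alone has no value for the mean of both hairpins. TGFB2 and TGFB3 had 23 to 78 counts a library. Of the lists around the core, 2 had medians that moved with 1 library left out. The target gene median was 0.72 without shCHAF1B-1 replicate 1 and 0.69 without shGFP replicate 3, against 0.80 with all libraries. The median of the nuclear partners was 0.25 without shCHAF1B-2 replicate 2 and 0.23 without shGFP replicate 1, against 0.30.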

Other observations

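The nearest tested genes that do not overlap each of the 9 on the chromosome were looked up after the values of the 9 had been seen. Genes overlapping a member were left out, such as HNRNPUL1 and CCDC97 at TGFB1 and IFT43 at TGFB3. Of 18 neighbours, 1 on each side, 8 were higher, 7 lower and 3 did not pass for the mean of both CHAF1B hairpins against shGFP (edgeR adjusted p under 0.05), beside 29.2% higher and 27.7% lower among all tested genes. AXL, a receptor tyrosine kinase gene 39821 bases from TGFB1, had a log2 fold change of 1.31, and B9D2, 510 bases away on the other side, had 0.49. AC096921.2, a transcript 3519 bases from TGFBR2, had 0.97. On both sides of SMAD3, SMAD6 (0.58, adjusted p = 0.121) and AAGAB (0.03, adjusted p = 0.572) did not pass. TGFBR2's other neighbour RBMS3, 596111 bases away, had -0.88.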
